A study of Homo sapiens with 12 samples.

Results

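The 35 genes described here encode the enzymes and transporters that carry glucose to pyruvate and lactate, the pyruvate dehydrogenase switch and the pentose phosphate pathway. They were taken from a named list of glycolysis, pyruvate and pentose phosphate genes, with the condition of a mean of at least 10 normalized counts over the 12 libraries. All 35 listed genes met that condition, out of 16383 genes in the table, of which 11242 met it. PDK4 was the least expressed member and met the condition only through the libraries of 2 groups, so its differences are in part fixed by the filter. Poly(A) RNA was sequenced from IMR90, a human lung fibroblast line that the labels give as WT. In all, 4 groups of 3 libraries each were compared. Proliferating cells (libraries A125, A126 and A127) had no treatment, and the labels give no harvest day for them. The other groups received 20 Gy of ionizing radiation over 10 min and were harvested on day 11, and the column names mark them as senescent (Sen). They were given DMSO, the vehicle (A116, A117 and A118), 2 µM palbociclib, an inhibitor of the cell cycle kinases CDK4 and CDK6 (A119, A120 and A121), or 2 µM ruxolitinib, an inhibitor of the JAK1 and JAK2 kinases (A122, A123 and A124). DMSO and both inhibitors were given on days 4, 6, 8 and 10. Each inhibitor is described in irradiated cells only. Between proliferating and DMSO cells, radiation, DMSO and days in culture cannot be told apart. The labels do not say that the libraries of a group came from separate cultures, and p-values measure the spread between these libraries, which may be technical.

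Glycolysis splits glucose into pyruvate in the cytosol, with hexokinase, phosphofructokinase and pyruvate kinase as its regulated steps. Pyruvate is then reduced to lactate by lactate dehydrogenase, or enters mitochondria and is oxidized by the pyruvate dehydrogenase complex, which the PDK kinases switch off by phosphorylation. The pentose phosphate pathway branches from glucose 6-phosphate and supplies NADPH and the ribose of nucleotides. Proliferating fibroblasts in culture are known for high glycolysis, and many of these genes are known targets of the hypoxia factor HIF-1 and of MYC.

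Recovered reads per library ranged from 17234093 to 20766998 in proliferating cells, from 14106799 to 16503624 with DMSO, from 17575263 to 21762412 with palbociclib and from 18713012 to 21750962 with ruxolitinib. The fibroblast identity was checked first: 12 of 12 fibroblast markers were measured above the filter, with a summed level of 436745 to 447216 normalized counts with DMSO, 545938 to 550273 with ruxolitinib, 697641 to 717632 with palbociclib and 867279 to 890931 in proliferating cells. Of the markers of other cell types, KRT5, KRT14, SFTPC, CDH5, CD3E, MYH11 and 4 of 4 erythrocyte genes had at most 3 reads in every library. Above the filter were 3 of 7 leukocyte markers (CD14, CSF1R and CD68), whose list summed to 555 to 578 normalized counts in proliferating cells, 1253 to 1338 with DMSO, 704 to 821 under palbociclib and 1118 to 1181 under ruxolitinib. The endothelial list (2 of 7, VWF and TEK) summed to 1682 to 1949, 2396 to 2562, 3506 to 4382 and 2251 to 2256 in that order, the epithelial list (3 of 8) to 154 to 222, 325 to 368, 412 to 531 and 356 to 403, and the smooth muscle and pericyte list (4 of 5) to 7517 to 8333, 4329.5 to 4463, 5063 to 5620.1 and 4605 to 4733. The part of these differences in the results was not tested. In these bulk samples, fewer cells of a type and less RNA per cell cannot be told apart. On the fourth principal component, which held 3.00% of the variance, A126 (proliferating) lay at -17.07 against 6.48 and 9.95 for the rest of its group, and the palbociclib libraries A119, A120 and A121 lay at 18.64, -17.57 and 1.37. A126 was also the highest of its group for 24 of the 35 members, A117 and A120 for 20 each and A124 for 19, while A119 and A125 were the lowest of theirs for 21 each and A116 for 20. Counts of members are given below also without A120 and A126, which shared the low end of that component. For runs with libraries left out, shares of all genes were not computed, so those counts cannot be set against a background. The members together took 1.80% to 2.05% of the summed normalized counts in every library.

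Against proliferating cells, the irradiated DMSO cells carried less RNA for the pentose phosphate enzymes, both lactate dehydrogenases and enolase 1, and more for hexokinase 2, the kinase PDK2 and the regulator PFKFB2. Of the 35 members, 9 were higher (25.7%) and 17 were lower (48.6%) in DMSO cells, and 9 did not pass the test, which was limma with Benjamini-Hochberg adjustment over 11242 genes and a call at an adjusted p under 0.05. Of all tested genes 33.0% were called higher and 39.3% lower in that comparison, 72.4% in either direction, so the share of members called, 74.3%, lay near the background. Their median log2 fold change was -0.10, beside -0.05 for all tested genes. Groups did not overlap for 10 members on the higher side and 18 on the lower side, beside 34.3% and 40.8% of all tested genes. The split depends on how libraries are scaled. When all libraries were given the same total, which moved the median of all genes by 0.23, 18 members were higher and 10 lower, with 46.9% and 26.4% of all genes. Scaling to the same upper quartile gave 13 and 11, with 42.1% and 30.4% of all genes and a median shift of 0.15. Quantile normalization gave 15 and 11, with 37.1% and 34.3% of all genes and a shift of 0.14. On recovered reads edgeR and DESeq2 each called 11 members higher and 15 lower. Of all genes, edgeR called 36.5% higher and 36.0% lower, and DESeq2 35.8% and 35.4%. The calls of 8 higher members (SLC2A3, SLC16A3, HK2, PFKM, ALDOA, ALDOC, PFKFB2 and PDK2) and 10 lower ones (PFKP, ENO1, LDHA, LDHB, PDHA1, PDK3, PGD, TKT, RPIA and RPE) held under each of the 25 alternatives run. PDK4, also among the 9 higher, met the filter only through the DMSO and ruxolitinib groups, so its call is not offered as support. The other 7 calls, all lower (SLC16A1, GPI, TPI1, PGAM1, PDHB, PDK1 and TALDO1), were lost with the same total in every library. Without A120 and A126 the counts were 11 and 16.

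With palbociclib, 23 of the 35 members were higher than with DMSO (65.7%) and 5 were lower (14.3%), and 7 did not pass the test. Among all tested genes 26.0% were higher and 22.3% lower, 48.3% in either direction, and the median log2 fold change was 0.18 for the members and 0.02 for all tested genes. Groups did not overlap for 22 members that were higher and 5 that were lower, beside 29.1% and 25.7% of all tested genes. Most of those increases were small, between 0.14 for PFKP and 0.35 for SLC16A3 on the log2 scale, with SLC2A1 and TALDO1 above that range. They also depend on the scaling. With the same total in every library, which moved the median of all genes by -0.23, 2 members were higher and 9 lower, with 8.36% and 46.0% of all genes. The same upper quartile gave 14 (40.0%) and 6 (17.1%), with 19.4% and 27.2% of all genes. Quantile normalization gave 8 (22.9%) and 7 (20.0%), with 24.2% and 20.2% of all genes, so under that scaling neither share of members exceeded the background. Under quantile normalization ALDOA, GAPDH and PKM were called lower with palbociclib. The edgeR quasi-likelihood test on recovered reads called 19 higher and 5 lower, with 23.8% and 24.0% of all genes. DESeq2 called 20 and 5, with 23.8% and 23.1% of all genes. Calls that held under each of the 25 alternatives were SLC2A1 and TALDO1, higher, and HK2 and PFKFB4, lower. The PDK4 call, among the 5 lower, is in part fixed by the filter and is not offered as support. Leaving out library A116 left 14 members higher, and leaving out A117 left 3 lower. Without A120 and A126, 20 were higher and 6 lower.

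In ruxolitinib against DMSO cells few of these genes passed the test. No member was called higher than with DMSO (0 of 35 by limma, 0 by edgeR and 0 by DESeq2, and 0 at an unadjusted p under 0.05), and 2 were called lower, HK2 and PFKP (5.71%). Of all tested genes 1.10% were higher and 3.42% lower by limma, 4.52% in either direction, and 1.36% were higher by edgeR and 1.77% by DESeq2. The groups did not overlap for 4 members on the higher and 6 on the lower side, beside 14.9% and 17.0% of all tested genes. In the direct comparison of the inhibitors, which were given at the same dose and on the same days, 17 members were higher with palbociclib than with ruxolitinib (48.6%) and 5 were lower (14.3%), beside 22.8% and 17.6% of all tested genes, 40.4% in either direction. Without overlap were 21 on the higher side and 5 on the lower, beside 29.0% and 22.8% of all tested genes. With the same total in every library the counts were 5 higher and 7 lower, with 7.53% and 40.3% of all genes and a median shift of -0.20. The same upper quartile gave 14 and 6, with 15.1% and 24.0% of all genes. Quantile normalization gave 5 (14.3%) and 8 (22.9%), with 17.6% and 17.2% of all genes, so the share of higher members was below the background there. Calls held under each of the 25 alternatives for SLC2A1, SLC2A3, PFKP and TALDO1, higher with palbociclib, and for ALDOC and PFKFB4, lower. That of PDK4, among the 5 lower, is in part fixed by the filter and is not offered as support. Single libraries ended 4 of the other calls: SLC16A1 without A119, A121, A122 or A123 (adjusted p 0.0501 to 0.135), PKM without A120, A122, A123 or A124 (0.0656 to 0.0822), RPE without A119, A121, A123 or A124 (0.0548 to 0.117), and PDK3. Without A120 and A126, 19 were higher and 5 lower. The comparisons with DMSO share the 3 DMSO libraries, and those with palbociclib share the 3 palbociclib libraries. Set against proliferating cells, palbociclib cells had 14 members higher (40.0%) and 11 lower (31.4%), beside 35.2% and 38.6% of all tested genes, 73.8% in either direction, and 16 and 9 members did not overlap, beside 33.6% and 37.3%. The calls of GPI, TPI1 and PFKFB4 in that comparison were lost on leaving out any of 11, 9 and 4 libraries.

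**Figure D1:**
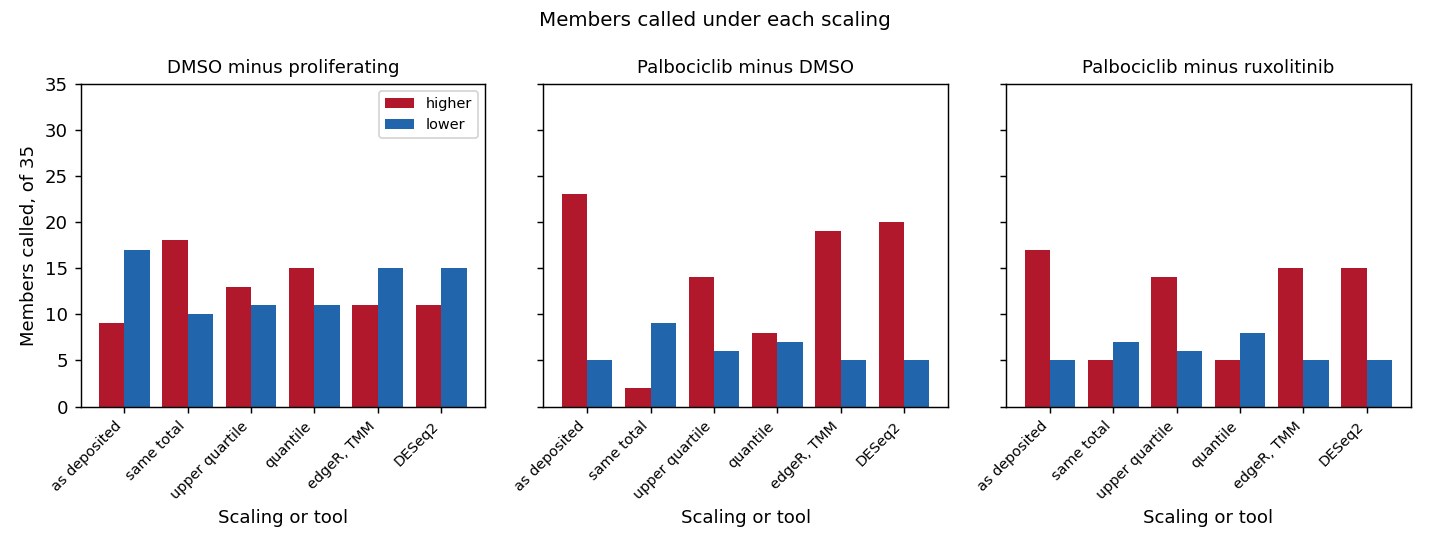
Number of the 35 members called higher (red) or lower (blue) on the y axis, in 3 comparisons (panels), under the deposited scaling and 5 other ways of scaling or testing the libraries (x axis). The palbociclib against DMSO count of higher members runs from 23 under the deposited scaling to 2 with the same total in every library.

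**Figure D2:**
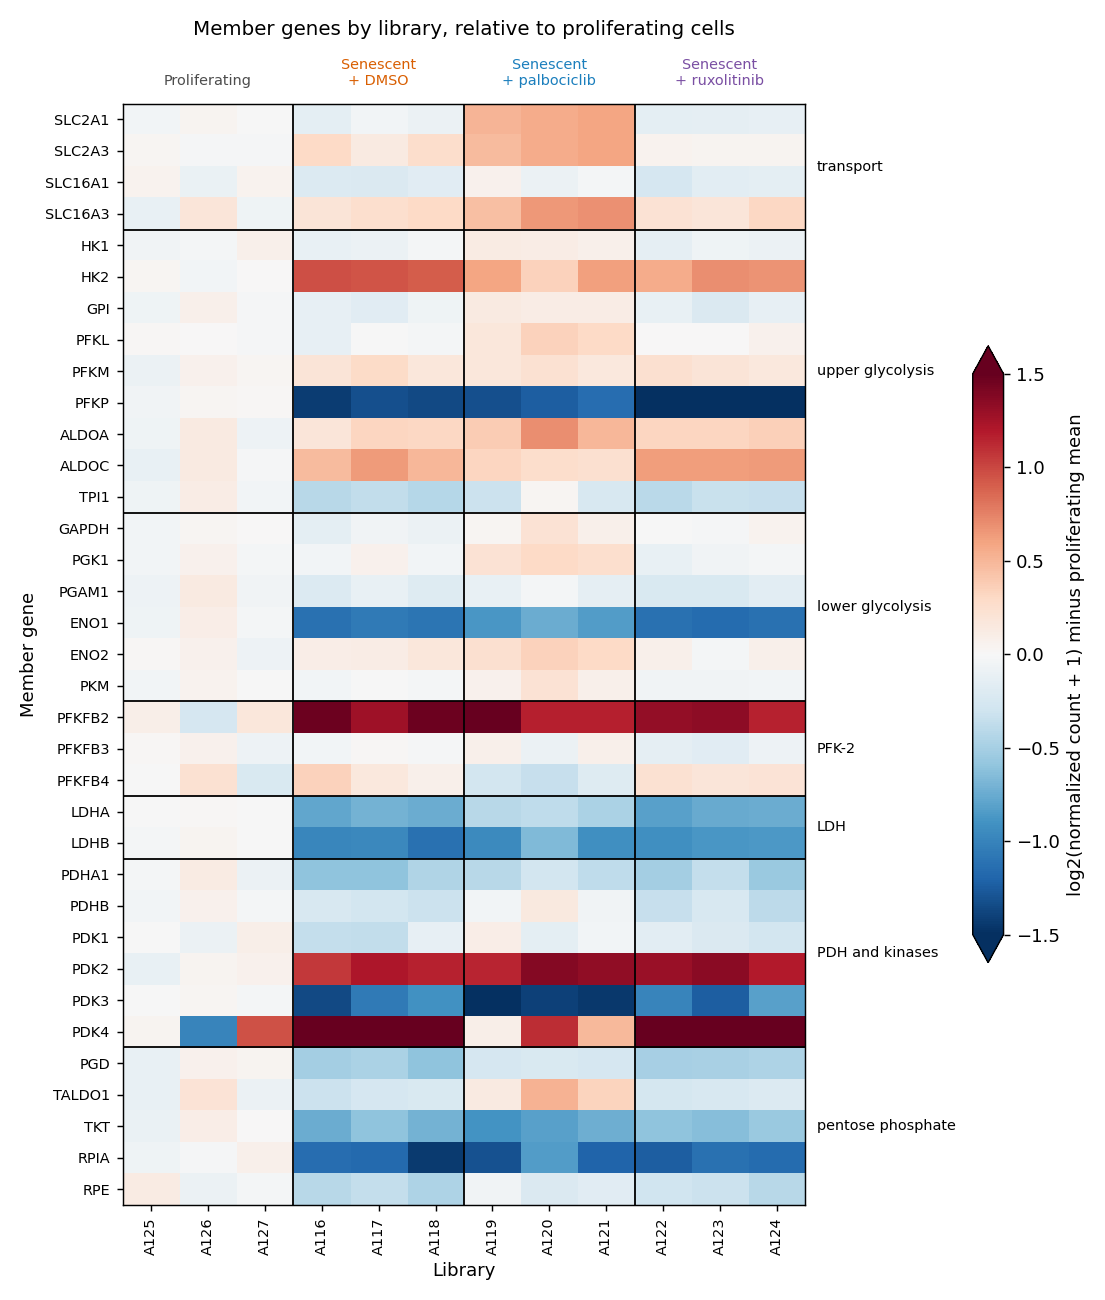
Level of each member (rows, by role) in each of the 12 libraries (columns, by group), as log2(normalized count + 1) minus the mean of the proliferating libraries, with the colour scale ending at -1.5 and 1.5. The irradiated libraries are low (blue) for PFKP, ENO1, LDHA, LDHB, RPIA and TKT, PDK4 is high in the DMSO and ruxolitinib libraries, and SLC2A1 is high in the 3 palbociclib libraries.

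Glucose enters fibroblasts through SLC2A1 (GLUT1) and SLC2A3 (GLUT3), and lactate crosses the membrane through SLC16A1 (MCT1) and SLC16A3 (MCT4). SLC2A1 lies at chr1:42925353-42958868 (GRCh38.p14, minus strand). It held 9378, 9938 and 9555 normalized counts in proliferating cells, 8726, 9346 and 9053 with DMSO, 13708, 14108 and 14451 under palbociclib and 8685, 8754 and 8868 under ruxolitinib. All 3 palbociclib libraries lay above all 9 others. The mean was 14089 ± 372 with palbociclib and 9042 ± 310.1 with DMSO (SD, n = 3 each), a 1.56-fold difference (log2 fold change 0.64, SE 0.05, adjusted p 2.47e-08, limma). The level with palbociclib also exceeded that of proliferating cells (log2 fold change 0.55, adjusted p 2.05e-08) and of ruxolitinib cells (0.68, adjusted p 1.63e-08). DMSO and proliferating cells differed by -0.09, which did not pass the test (adjusted p 0.0852), and with the same total in every library the difference was 0.14, called higher (adjusted p 0.0113).

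SLC2A3 held 1483, 1444 and 1443 normalized counts in proliferating cells, 1796, 1605 and 1752 with DMSO, 2032, 2149.9 and 2191 under palbociclib and 1506, 1498 and 1497 under ruxolitinib. It rose with DMSO over proliferating cells (log2 fold change 0.24, adjusted p 0.000912), and with palbociclib it was higher again, both over DMSO (0.31, adjusted p 0.000238) and over ruxolitinib (0.50, adjusted p 2.94e-06). The ruxolitinib libraries lay below the DMSO libraries without overlap, by -0.19, an unadjusted call that did not pass after adjustment (adjusted p 0.0525). It was called lower under 9 of the 25 alternatives, among them the same total (adjusted p 0.0349), a fit of the 2 groups alone (0.00236), DESeq2 (0.0269) and leaving out A117, A119, A120 or A126 (0.0324 to 0.0432). Of its transcript's 50-base words 24.7% occur also in other genes, chiefly SLC2A14, so its counts are uncertain to that extent. SLC16A3, the exporter of lactate in glycolytic cells, also rose with DMSO (0.25) and with palbociclib over DMSO (0.35), from a mean of 7386 ± 838 in proliferating cells to 8741 ± 312 and 11151 ± 932. SLC16A1 was lower with DMSO (-0.20) and higher with palbociclib (0.18), where leaving out A117 or A119 ended the call (adjusted p 0.0555 to 0.0640). With palbociclib all 4 transporters were called higher than with DMSO and than with ruxolitinib, beside 26.0% and 22.8% of all tested genes. With the same total in every library the calls of SLC2A3, SLC16A1 and SLC16A3 against DMSO and of SLC16A1 and SLC16A3 against ruxolitinib were lost.

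Hexokinase traps glucose in the cell as glucose 6-phosphate, with HK1 as the widely expressed form and HK2 as the inducible one. HK2 (chr2:74834127-74893359, plus strand) held 1583, 1508 and 1546 normalized counts in proliferating cells and 3011, 2981 and 2895 with DMSO. Its level was 2329, 1964 and 2362 under palbociclib and 2275, 2515 and 2461 under ruxolitinib. The DMSO libraries were the highest, the proliferating libraries the lowest, and both inhibitor groups lay between them with no overlap with either. HK2 thus was 1.92-fold higher with DMSO than in proliferating cells (log2 fold change 0.94, SE 0.07, adjusted p 3.77e-09). It fell by 0.42 on the log2 scale with palbociclib against DMSO (SE 0.07, adjusted p 9.72e-05) and by 0.29 with ruxolitinib (adjusted p 0.0172). The ruxolitinib call was lost when A116, A117, A118, A122 or A124 was left out (adjusted p 0.0510 to 0.107), while the palbociclib call held in every alternative. The palbociclib and ruxolitinib levels differed by -0.13 (adjusted p 0.138), which did not pass. HK1, with a mean of 4239 ± 195 in proliferating cells, was not called with DMSO (-0.07) and was higher with palbociclib (0.18).

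The 250 bases just upstream of the annotated start of HK2, LDHA, PGK1 and SLC2A1 are shown because these genes moved differently: HK2 rose and LDHA fell with DMSO, PGK1 was not called there, and SLC2A1 rose with palbociclib. Sequences are from RefSeq (GRCh38.p14), 5′ to 3′ on the gene's strand, for HK2 at chr2:74833877-74834126, plus strand, LDHA at chr11:18394313-18394562, plus strand, PGK1 at chrX:78103998-78104247, plus strand and SLC2A1 at chr1:42958869-42959118, minus strand. Capitals mark ACGTG or GCGTG on either strand, the core letters of the hypoxia response element.
HK2: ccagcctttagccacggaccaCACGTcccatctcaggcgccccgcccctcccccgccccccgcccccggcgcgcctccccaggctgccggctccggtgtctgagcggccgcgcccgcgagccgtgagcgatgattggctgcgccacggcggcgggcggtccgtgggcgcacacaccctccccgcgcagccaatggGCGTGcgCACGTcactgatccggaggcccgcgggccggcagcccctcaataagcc
LDHA: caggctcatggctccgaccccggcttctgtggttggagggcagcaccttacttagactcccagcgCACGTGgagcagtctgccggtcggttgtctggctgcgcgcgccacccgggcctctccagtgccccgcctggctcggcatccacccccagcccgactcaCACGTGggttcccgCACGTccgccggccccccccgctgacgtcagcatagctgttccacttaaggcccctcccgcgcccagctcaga
PGK1: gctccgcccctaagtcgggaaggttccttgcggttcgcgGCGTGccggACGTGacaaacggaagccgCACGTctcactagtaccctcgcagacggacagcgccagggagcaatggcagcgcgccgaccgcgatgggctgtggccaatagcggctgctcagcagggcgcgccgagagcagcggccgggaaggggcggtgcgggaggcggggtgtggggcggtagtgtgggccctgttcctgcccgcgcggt
SLC2A1: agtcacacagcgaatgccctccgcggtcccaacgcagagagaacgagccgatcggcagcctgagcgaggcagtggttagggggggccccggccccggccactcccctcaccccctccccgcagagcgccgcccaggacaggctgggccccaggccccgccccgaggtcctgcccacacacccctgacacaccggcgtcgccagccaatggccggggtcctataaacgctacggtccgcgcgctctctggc
In the window HK2 held 3 matches, LDHA 5, PGK1 3 and SLC2A1 0. Strands were counted separately, so each CACGTG, which reads the same on both, gave 2 matches. The 5 matches of LDHA lie in 3 marked stretches. Promoters of 32 of the 35 members were matched in the RefSeq table (SLC2A3, SLC16A1 and PFKFB2 had no entry), and 21 of them held ACGTG or GCGTG (65.6%). Windows of the same length held either motif in 54.8% of 13654 promoters of tested genes and in 43.2% of all 35116 promoters. Each member had 1 window, that of the listed promoter nearest the start of its canonical transcript. The background took every listed promoter, so the shares are not fully alike. Furthest from that start were PFKM (3283 bases), PGAM1 (1627) and GAPDH (747). Taken singly, ACGTG was in 15 of the 32 (46.9%, against 22.1% of promoters of tested genes) and GCGTG in 13 (40.6%, against 43.2%). The E-box CACGTG, which holds ACGTG, was in 6 (18.8%, against 8.11%). A match is a description of letters, and a window without one, as for SLC2A1, says only that these letters are not in these 250 bases.

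Phosphofructokinase commits sugar to glycolysis and has 3 isoforms, PFKL, PFKM and PFKP. PFKP (chr10:3067548-3136805, plus strand) was the most abundant in proliferating cells, with 9387, 9934 and 9843 normalized counts, and held 3619.8, 3884 and 3789 with DMSO. With palbociclib it held 3906, 4128 and 4389 and with ruxolitinib 3241, 3169.5 and 3345. Every proliferating library exceeded every irradiated one. The mean was 9721 ± 293 in proliferating and 3764 ± 134 in DMSO cells (SD, n = 3 each), the largest decrease among the members in that comparison (log2 fold change -1.37, SE 0.05, adjusted p 2.62e-12). PFKP was lower again with ruxolitinib than with DMSO (-0.21, adjusted p 0.0293), a call lost when A117, A118, A122, A123 or A124 was left out (adjusted p 0.0644 to 0.141). With palbociclib against DMSO it was called higher (0.14, adjusted p 0.0408), which leaving out any of 7 libraries ended: A116, A118, A120, A121, A122, A123 or A124 (adjusted p 0.0525 to 0.183). Against ruxolitinib, palbociclib was 0.35 higher (adjusted p 8.33e-05). PFKM rose with DMSO (0.22), and PFKL was not called there (-0.05) but was higher with palbociclib than with DMSO (0.32).

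Among the other enzymes of upper glycolysis, aldolase C, the minor fibroblast aldolase, held 169, 201 and 182 normalized counts in proliferating cells and 255, 285 and 259 with DMSO. With palbociclib the values were 229, 221 and 217, and with ruxolitinib 285, 284 and 285. The DMSO libraries lay above the proliferating ones (log2 fold change 0.53, SE 0.09, adjusted p 4.38e-05), and the palbociclib libraries lay between both groups. Palbociclib against DMSO gave -0.26 (adjusted p 0.0218), which leaving out A117 or A121 ended (adjusted p 0.0633 to 0.0908), and against ruxolitinib -0.35 (adjusted p 0.00417). ALDOA, the main aldolase, was higher with DMSO (0.27) and with palbociclib over DMSO (0.25), where leaving out A116 ended the call (adjusted p 0.0668). Of its 50-base words 89.5% occur also in an overlapping gene model or in ALDOAP2, so its counts depend on how the authors assigned such reads. Triose phosphate isomerase, TPI1, fell with DMSO (-0.40) and was higher with palbociclib (0.23), a call lost without A116, A118 or A120 (adjusted p 0.0577 to 0.0771). Of the 50-base words of TPI1 27.3% occur also in TPI1P1 or TPI1P2, so its counts carry that uncertainty. GPI, which turns glucose 6-phosphate into fructose 6-phosphate, was lower with DMSO by 0.12 on the log2 scale at an adjusted p of 0.0493, with overlapping groups. Its call ended when any of 8 libraries was left out (A116, A117, A121, A122, A123, A124, A126 or A127, adjusted p 0.0523 to 0.193).

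**Figure D3:**
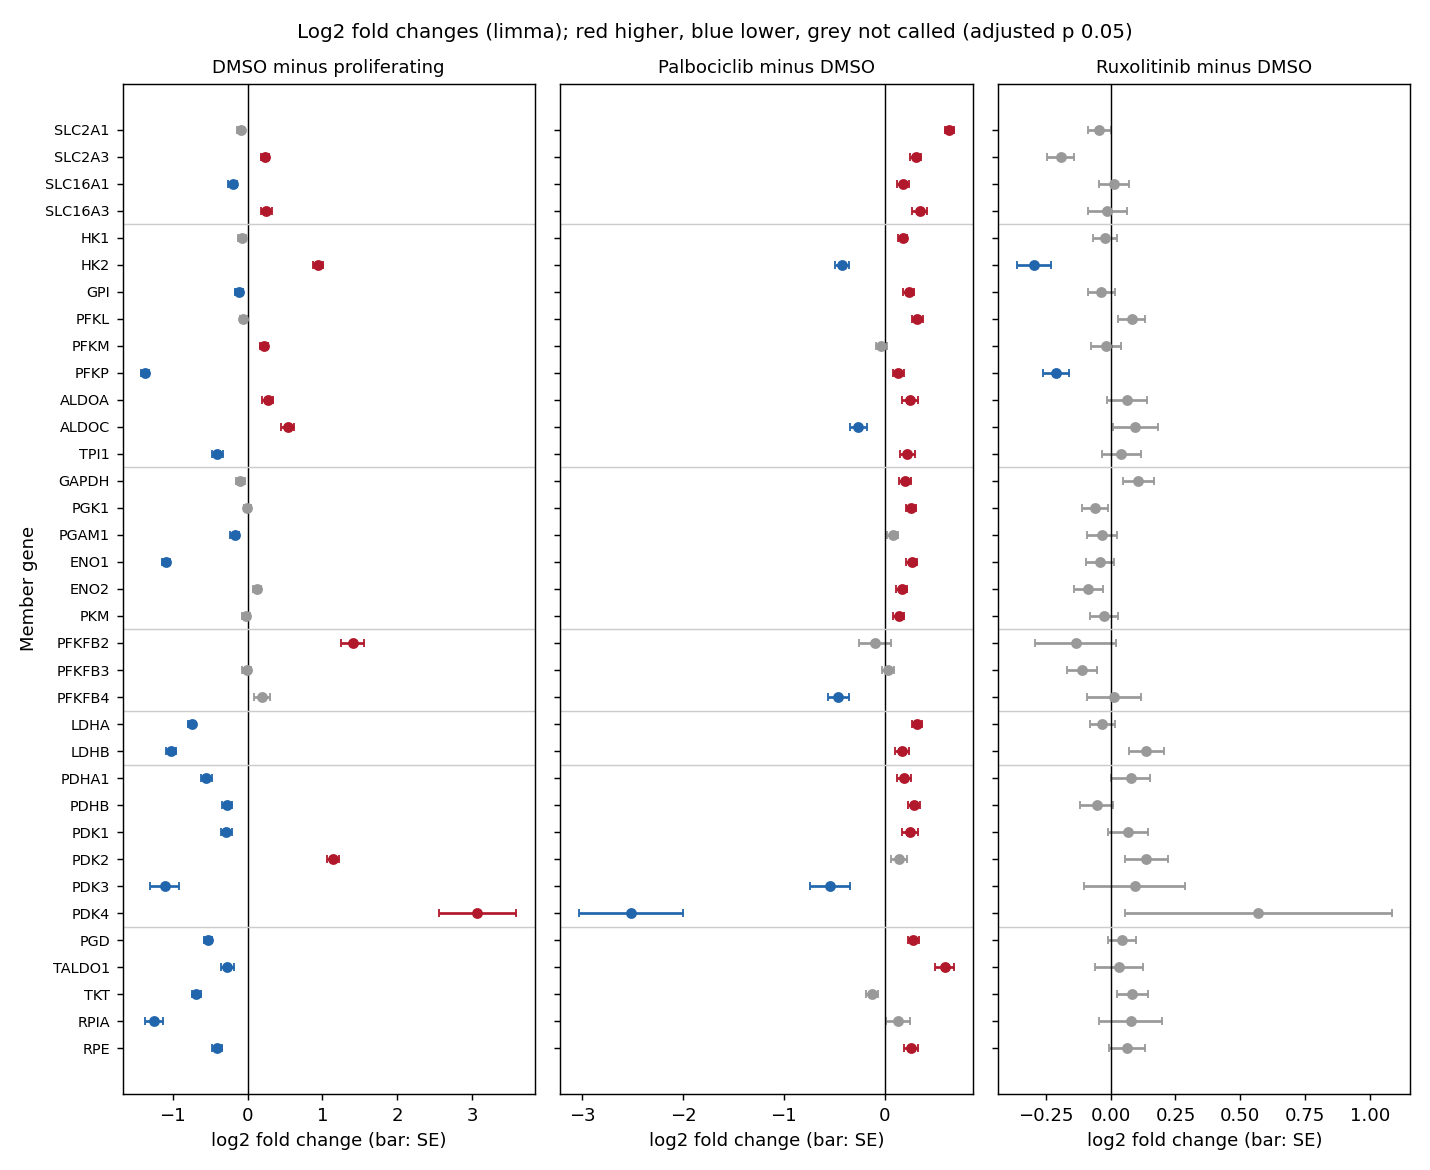
Log2 fold change (x axis, each panel with its own range) of each member (y axis) in DMSO against proliferating, palbociclib against DMSO and ruxolitinib against DMSO cells (panels), with bars of 1 standard error and red (higher) or blue (lower) points for calls at an adjusted p under 0.05. PFKP, at -1.37, and PDK4, at 3.07, are the ends of the range in DMSO against proliferating cells, and ruxolitinib against DMSO has 2 coloured points, HK2 and PFKP.

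In lower glycolysis, from glyceraldehyde 3-phosphate to pyruvate, 2 of 6 members fell with DMSO, none rose, and 4 did not pass the test, beside 39.3% of all tested genes lower and 33.0% higher. Enolase 1 (chr1:8861000-8878686, minus strand) held 47010.1, 52663 and 48314 normalized counts in proliferating cells and 22672, 23630.3 and 23102 with DMSO. It held 26845, 29327 and 27472 under palbociclib and 22694, 22106 and 22603 under ruxolitinib. All proliferating libraries exceeded all 9 irradiated ones, and the palbociclib libraries lay above those with DMSO or ruxolitinib. The mean was 49329 ± 2959.8 in proliferating and 23135 ± 479.9 in DMSO cells (SD, n = 3 each), a decrease past the threshold (log2 fold change -1.09, SE 0.05, adjusted p 5.11e-11). With palbociclib it was 0.27 above DMSO (adjusted p 0.000764) and still 0.82 below proliferating cells on the log2 scale (adjusted p 1.21e-09). ENO2, the neuronal enolase, was 0.13 above proliferating cells with DMSO (adjusted p 0.0537), which missed the threshold although the groups did not overlap. It was called higher under 9 of the 25 alternatives: without A119, A120 or A126 (adjusted p 0.0262 to 0.0469), without A120 and A126 together, under the 3 other scalings (5.38e-05 to 0.000723), and by edgeR (0.00814) and DESeq2 (0.00519).

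GAPDH, PGK1 and PKM, which are among the most abundant glycolytic transcripts, were not called with DMSO, at -0.10, -0.00 and -0.02. With the same total in every library each of these was called higher, so no direction is given. PGAM1 was called lower (-0.17, adjusted p 0.0142), and leaving out A116 or A126 ended that call (adjusted p 0.0535 to 0.0787). Of its 50-base words 56.8% occur also in other genes, among them PGAM4. For GAPDH that share was 20.4%, over 13 other genes. With palbociclib 5 of the 6 lower-glycolysis members were called higher than with DMSO, PGK1 (0.26), ENO1, GAPDH (0.20), ENO2 (0.17) and PKM (0.14), beside 26.0% of all tested genes. Under the same-total scaling none of the 5 was called higher, nor under quantile normalization. The GAPDH call was lost without A116 (adjusted p 0.0520), the ENO2 call without A116, A117, A120 or A121 (adjusted p 0.0516 to 0.0720), and the PKM call without 10 of the 12 libraries in turn, all but A119 and A126.

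The PFK-2 enzymes make and remove fructose 2,6-bisphosphate, the strongest activator of phosphofructokinase. PFKFB2 was the low-level member of the family, with 46.7, 36.6 and 49.5 normalized counts in proliferating cells and 124, 108 and 124 with DMSO. It held 136, 99.6 and 99.5 under palbociclib and 111, 113 and 99.3 under ruxolitinib. The 9 irradiated libraries all lay above the proliferating ones, and the 3 irradiated groups overlapped. DMSO was 2.65-fold above proliferating cells (log2 fold change 1.41, SE 0.15, adjusted p 6.85e-07). PFKFB3, the most abundant of the 3, with a mean of 1827 ± 88.2 in proliferating and 1808 ± 33.0 in DMSO cells, was called in none of the 5 comparisons. PFKFB4 held 313, 367 and 269 in proliferating cells, 398, 352 and 329.6 with DMSO, 260.1, 247 and 274 under palbociclib and 367, 355 and 363 under ruxolitinib. Palbociclib libraries were lower than those with DMSO (log2 fold change -0.46, SE 0.10, adjusted p 0.00211) and than those with ruxolitinib (-0.47, adjusted p 0.00218), without overlap in either case.

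Lactate dehydrogenase interconverts pyruvate and lactate, with LDHA as the subunit of glycolytic tissue and LDHB as that of oxidative tissue. LDHA (chr11:18394563-18408425, plus strand) held 42641, 43507 and 42802 normalized counts in proliferating cells and 24966, 26393 and 25644 with DMSO. With palbociclib it held 32120.3, 33108 and 31036, and with ruxolitinib 24350.3, 25399 and 25561. Palbociclib libraries lay between the proliferating libraries and those with DMSO, without overlap with either. LDHA fell with DMSO (log2 fold change -0.74, SE 0.05, adjusted p 1.07e-09), and palbociclib was 0.32 above DMSO (adjusted p 5.09e-05) and 0.42 below proliferating cells on the log2 scale (adjusted p 7.34e-07). The palbociclib call against DMSO was lost with the same total in every library and under quantile normalization.

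LDHB (chr12:21635342-21657842, minus strand) held 7523, 7856 and 7624 in proliferating cells, 3876, 3935 and 3530.3 with DMSO, 3941, 4832 and 4039 under palbociclib and 4036, 4195 and 4231 under ruxolitinib. All irradiated libraries were below the proliferating ones, and the DMSO libraries were below both inhibitor groups, which overlapped. The decrease with DMSO passed the test (log2 fold change -1.02, SE 0.07, adjusted p 1.99e-09). The palbociclib call was slight (0.17, adjusted p 0.0492) and was lost without any of 9 libraries (A116, A117, A118, A120, A122, A123, A124, A125 or A127, adjusted p 0.0524 to 0.235). Of the 50-base words of LDHB 73.1% are shared with other genes, and of LDHA 12.2%, so the LDHB counts carry that uncertainty.

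PDHA1 and PDHB form the E1 part of the pyruvate dehydrogenase complex, and PDK1 to PDK4 are the kinases that inhibit it. PDHA1 (chrX:19343927-19361718, plus strand) held 1212, 1346 and 1170.3 normalized counts in proliferating cells and 818, 816 and 908 with DMSO. The other values were 926, 1024 and 955 under palbociclib and 869.5, 969 and 843 under ruxolitinib. The DMSO libraries were below the proliferating ones without overlap (log2 fold change -0.55, SE 0.07, adjusted p 5.71e-06). PDHB also fell with DMSO (-0.28) and was higher with palbociclib (0.29, adjusted p 0.00136). The PDHA1 increase with palbociclib (0.19, adjusted p 0.0406) was lost without A116, A117, A120, A121, A122 or A125 (adjusted p 0.0504 to 0.128).

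The 4 kinases differed in direction. PDK2 held 198, 219.6 and 224 normalized counts in proliferating cells, 447, 495 and 476 with DMSO, 474, 555 and 540.1 under palbociclib and 526, 548 and 486 under ruxolitinib. All 9 irradiated libraries lay above the proliferating ones, and DMSO was 2.21-fold above them (log2 fold change 1.14, SE 0.08, adjusted p 5.49e-09). PDK3 went the other way, with 122, 125 and 119.98 in proliferating cells and 47.5, 58.0 and 64.8 with DMSO (log2 fold change -1.11, SE 0.20, adjusted p 0.000100). Its palbociclib libraries, at 27.7, 46.0 and 44.4, were the lowest, below those with DMSO (-0.54, adjusted p 0.0320) and those with ruxolitinib at 61.0, 51.3 and 69.5 (-0.63, adjusted p 0.0172). Leaving out A117, A118 or A119 ended the call against DMSO (adjusted p 0.0786 to 0.156). Leaving out A119, A122 or A124 ended that against ruxolitinib (adjusted p 0.0504 to 0.0789). Quantile normalization ended both, at -0.17 against DMSO (adjusted p 0.505) and -0.37 against ruxolitinib (adjusted p 0.160). The call against DMSO was also lost without the filter (adjusted p 0.0557) and in a fit of the 2 groups alone (adjusted p 0.0777). PDK1, a hypoxia-responsive kinase, fell with DMSO (-0.28) and was higher with palbociclib (0.25), a call lost without A116, A117 or A119 (adjusted p 0.0540 to 0.0625).

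PDK4 (chr7:95583499-95596516, minus strand), the kinase known for induction in fasting and by FOXO1, was near the floor in 2 groups. It had 1, 0 and 3 reads in the proliferating libraries and 1, 3 and 2 with palbociclib, against 12, 17 and 14 with DMSO and 28, 32 and 24 with ruxolitinib. As normalized counts these were 1.04, 0 and 2.86 in proliferating cells, 1.11, 3.28 and 1.78 with palbociclib, 11.9, 20.1 and 16.2 with DMSO and 21.6, 28.8 and 21.7 with ruxolitinib. The DMSO and ruxolitinib libraries lay above all others. PDK4 met the filter only through the DMSO and ruxolitinib groups. Its differences between those groups and the others are in part fixed by the filter and are given as values alone. Scaled by library, DMSO had 11.5 times the reads of proliferating cells and 7.75 times those of palbociclib cells. Ruxolitinib had 11.7 times the reads of palbociclib cells. The limma log2 fold changes were 3.07 for DMSO against proliferating cells, -2.51 for palbociclib against DMSO and -3.08 for palbociclib against ruxolitinib. Ruxolitinib had 1.51 times the reads of DMSO cells (95% exact interval 1.03 to 2.24, which covers counting error only). The limma log2 fold change for ruxolitinib against DMSO was 0.57 and did not pass (adjusted p 0.666).

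**Figure D4:**
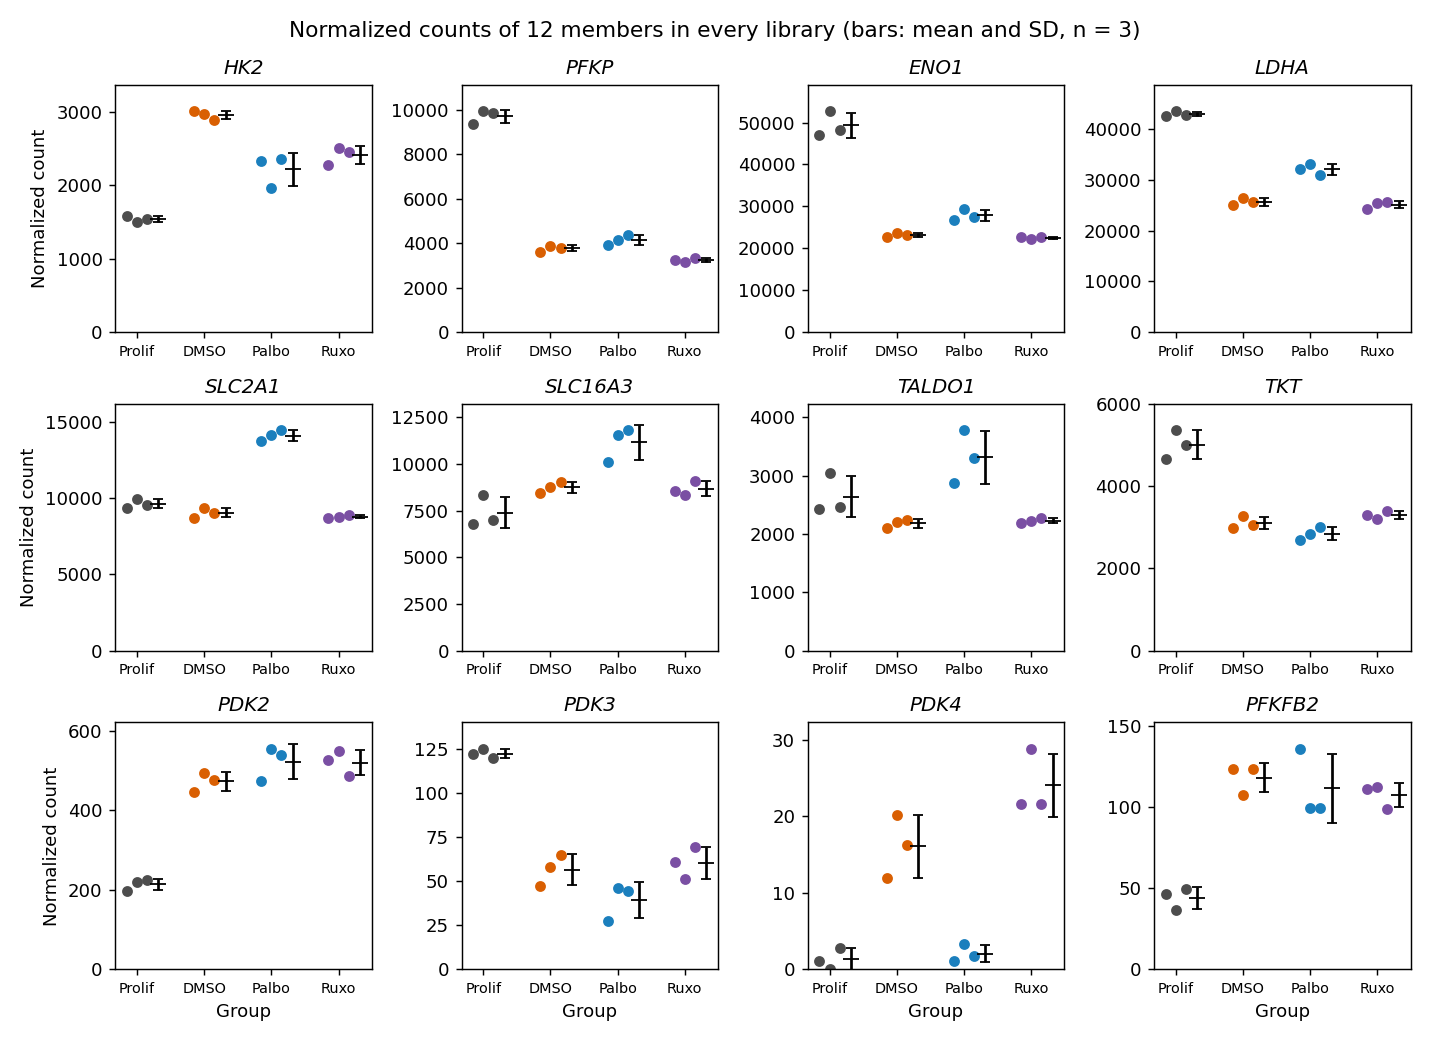
Normalized counts (y axis, from 0) of 12 members in each library (points) by group (x axis), with bars for the group mean and SD (n = 3). HK2 is highest with DMSO, SLC2A1 is highest with palbociclib, PFKP and LDHA are highest in proliferating cells, and PDK4 is at 24.0 with ruxolitinib and 16.1 with DMSO against 2.06 with palbociclib.

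All 5 pentose phosphate members were called lower with DMSO than in proliferating cells, beside 39.3% of all tested genes, and with the same total in every library the calls of 4 of them held, the exception being TALDO1. RPIA, which makes ribose 5-phosphate, held 362, 375 and 401 normalized counts in proliferating cells and 171, 168 and 139.9 with DMSO. It held 153, 212 and 164 under palbociclib and 160.5, 174 and 169.6 under ruxolitinib. Its 9 irradiated libraries were all below the proliferating ones (log2 fold change -1.25, SE 0.12, adjusted p 1.47e-07 for DMSO), and neither inhibitor was called against DMSO. TKT, the transketolase, held 4654, 5364 and 5007 in proliferating cells and 2995, 3278 and 3059.6 with DMSO (log2 fold change -0.69, SE 0.06, adjusted p 5.08e-08). With palbociclib it was at 2691, 2849 and 3003 and with ruxolitinib at 3301, 3200.1 and 3386, and palbociclib was lower than ruxolitinib by 0.21 on the log2 scale (adjusted p 0.0112). PGD, an NADPH-making enzyme of the pathway, fell with DMSO (-0.53, adjusted p 2.99e-07) and was higher with palbociclib (0.28, adjusted p 0.000515), as was RPE, the ribulose phosphate epimerase (-0.41 and 0.26).

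Transaldolase, TALDO1 (chr11:747464-765012, plus strand), held 2425, 3041 and 2463 normalized counts in proliferating cells and 2097, 2202 and 2250.2 with DMSO. With palbociclib it rose to 2876, 3783 and 3301, and with ruxolitinib it held 2195, 2219.6 and 2281. All palbociclib libraries lay above all DMSO and ruxolitinib libraries, but A126 of the proliferating group reached into their range. The increase over DMSO was 1.51-fold (log2 fold change 0.60, SE 0.09, adjusted p 8.03e-05), and that over ruxolitinib was 0.56 on the log2 scale (adjusted p 0.000176). Its decrease with DMSO from proliferating cells (-0.27, adjusted p 0.0154) was lost without A116 or A126 (adjusted p 0.0578 to 0.0846).

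Ratios of 2 isoforms within a library, each taken as normalized count + 1, do not depend on library scaling apart from that added 1, and 11 such ratios were compared in 3 comparisons, 33 tests in all. With 3 libraries against 3 the two-sided exact permutation test cannot go below p = 0.10, and after Benjamini-Hochberg adjustment the lowest value was 0.15. None of the 33 therefore can pass, and the ratios are descriptions. Ratios of other gene pairs were not computed, so counts of ratios without overlap have no background share and are not read as particular to these genes. Of single tested genes, 34.3% lay higher and 40.8% lower without overlap in DMSO against proliferating cells. The shares were 29.1% and 25.7% for palbociclib against DMSO, and 14.9% and 17.0% for ruxolitinib against DMSO. In DMSO against proliferating cells 10 of 11 ratios did not overlap between groups. The HK2 to HK1 ratio was 0.365 in proliferating cells, 0.737 with DMSO, 0.486 under palbociclib and 0.609 under ruxolitinib, so the DMSO group was highest and all 3 irradiated groups exceeded the proliferating one. PFKP to PFKL went from 3.60 in proliferating cells to 1.45, 1.27 and 1.18 in the DMSO, palbociclib and ruxolitinib groups. ENO2 to ENO1 was 0.0290 in proliferating cells and 0.0673 with DMSO, a difference of 1.22 on the log2 scale. LDHB to LDHA moved less, from 0.178 to 0.147. In palbociclib against DMSO cells 8 of 11 ratios did not overlap, among them SLC2A3 to SLC2A1, which was 0.151 with palbociclib and 0.190 with DMSO, and PFKM to PFKL, 0.388 and 0.496. In ruxolitinib against DMSO cells 4 of 11 did not overlap, HK2 to HK1, PFKP to PFKL, LDHB to LDHA and PDK4 to PDK2. PDK4 to PDK2 is also counted without overlap in DMSO against proliferating and in palbociclib against DMSO cells. PDK4 met the filter only through the DMSO and ruxolitinib groups, so there that ratio is in part fixed by the filter and is not offered as support.

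**Figure D5:**
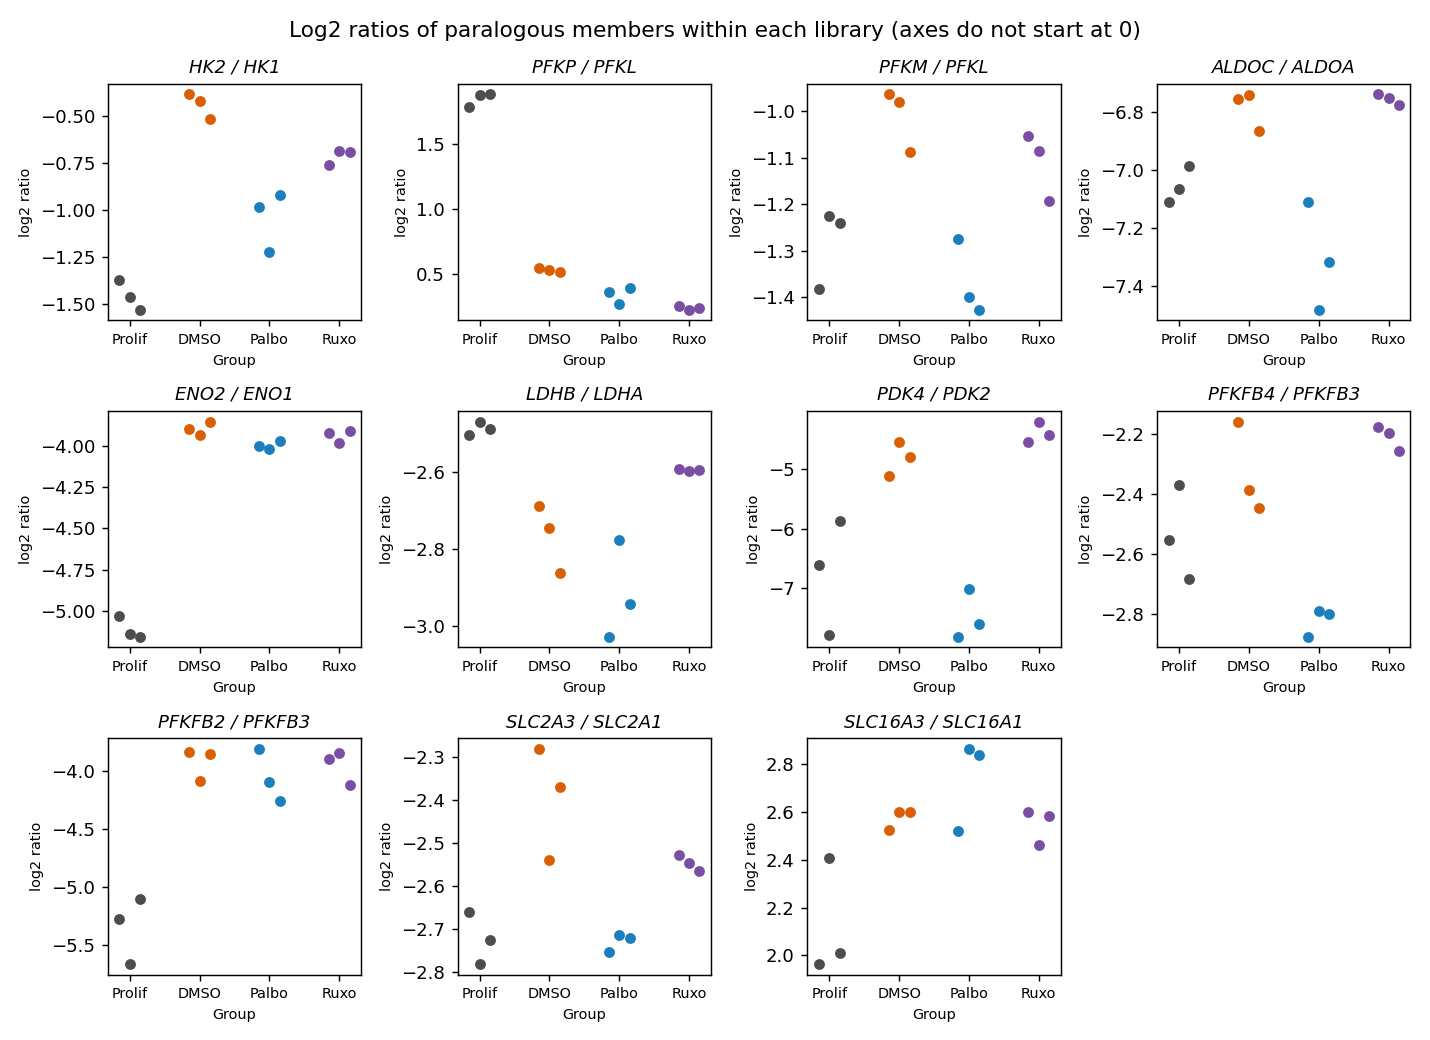
Log2 ratio of 2 isoforms within each library (y axis) by group (x axis), 1 panel per pair and 1 point per library, on axes that do not start at 0. The HK2 to HK1 ratio is lowest in proliferating and highest in DMSO libraries, and PFKP to PFKL is highest in proliferating libraries.

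Levels between genes were compared per kilobase of canonical transcript (GENCODE 44), as group means of normalized counts. GAPDH and PKM had ranks 1 and 2 in all 4 groups, at 70627 ± 1568 and 28419.9 ± 1007 normalized counts per kilobase in proliferating cells (SD, n = 3). ENO1 had rank 3 there at 27697 ± 1662, within the spread of PKM, followed by LDHA at 19181 ± 206 and ALDOA at 14988 ± 1295. With DMSO ALDOA had rank 3 at 18032 ± 984, then ENO1 at 12989.8 ± 269 and LDHA at 11454 ± 319, and the same order of these 3 held with palbociclib and ruxolitinib. PFKP went from rank 8 in proliferating cells to rank 13 in each irradiated group. HK2 went from rank 26 to rank 21 with DMSO and with ruxolitinib, and was at rank 25 with palbociclib. The lowest members were PFKFB2, at 6.26 ± 0.960 in proliferating cells, and PDK4, at 0.360 ± 0.402.

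Other genes of these pathways were described from a list of 57, of which 56 were in the table and 38 passed the filter. In DMSO against proliferating cells 19 of the 38 were higher and 12 lower (31.6%), beside 33.0% and 39.3% of all tested genes. In palbociclib against DMSO cells 16 were higher (42.1%) and 6 lower (15.8%), beside 26.0% and 22.3%, and in palbociclib against ruxolitinib cells 15 (39.5%) and 5 (13.2%), beside 22.8% and 17.6%. The medians of their log2 fold changes were 0.13, 0.17 and 0.13 in that order, beside -0.05, 0.02 and 0.02 for all tested genes. Ruxolitinib against DMSO gave 0 higher, with 4 at an unadjusted p under 0.05, and 2 lower (5.26%, beside 3.42% of all tested genes), PCK2 (-0.40, adjusted p 0.00434) and PDP1 (-0.31, adjusted p 0.0301). The largest changes with DMSO were those of PGAM2, the muscle phosphoglycerate mutase (log2 fold change 3.39, adjusted p 3.72e-11), PCK2, the mitochondrial PEP carboxykinase (-1.73, adjusted p 9.73e-12), RBKS, ribokinase (1.70, adjusted p 2.01e-05), and TIGAR, a p53 target that lowers fructose 2,6-bisphosphate (1.38, adjusted p 1.20e-11). PCK2 held 1011, 1115 and 1029 normalized counts in proliferating cells, 294, 315 and 340.0 with DMSO, 727, 817 and 771 under palbociclib and 232, 242 and 244 under ruxolitinib. It was higher with palbociclib than with DMSO (1.28, adjusted p 2.36e-09) and than with ruxolitinib (1.68, adjusted p 1.76e-10). Also changed with palbociclib against DMSO were ENO3, the muscle enolase (-0.86, adjusted p 0.000579), PRPS1, which makes the ribose donor of nucleotides (0.72, adjusted p 4.31e-08), and SLC2A10, GLUT10 (0.49, adjusted p 1.81e-05).

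A list of 39 regulators of glycolytic genes and hypoxia targets outside glycolysis had 38 genes in the table and 35 above the filter. With DMSO 17 were higher (48.6%) and 9 lower (25.7%) than in proliferating cells, beside 33.0% and 39.3% of all tested genes. With palbociclib 16 were higher (45.7%) and 6 lower (17.1%) than with DMSO, beside 26.0% and 22.3%, and 16 (45.7%) and 7 (20.0%) than with ruxolitinib, beside 22.8% and 17.6%. Medians were 0.19, 0.15 and 0.11, beside -0.05, 0.02 and 0.02 for all tested genes. Genes of this list and the one before were not rerun with libraries left out, under another scaling, or with edgeR or DESeq2. Their counts and shares hold for the deposited scaling alone. Ruxolitinib against DMSO gave 0 higher, with 6 at an unadjusted p under 0.05, and 4 lower (11.4%, beside 3.42% of all tested genes), CA12, VEGFA, TXNIP and BHLHE40, at -0.49, -0.29, -0.24 and -0.21. The arrestins ARRDC4 and TXNIP, which are induced by glucose and restrain its uptake, rose with DMSO by 2.93 and 1.97 (adjusted p 8.46e-15 and 1.36e-14). FOXO1, the forkhead factor known to act on PDK4, held 2.08, 5.55 and 0.952 normalized counts in proliferating cells, 23.8, 24.9 and 22.0 with DMSO, 14.4, 3.28 and 8.88 under palbociclib and 24.7, 15.3 and 24.4 under ruxolitinib. It met the filter only through the DMSO and ruxolitinib groups, so its differences are in part fixed by the filter and are given as values alone: 2.85 for DMSO against proliferating cells, and -1.50 and -1.34 for palbociclib against DMSO and against ruxolitinib cells. AK4, a mitochondrial adenylate kinase and hypoxia target, rose with DMSO (1.53) and was higher with palbociclib than with DMSO (1.02, adjusted p 3.61e-08) and than with ruxolitinib (0.95). The hypoxia targets differed in direction with palbociclib against DMSO. CA9, CA12 and EGLN3, among the 6 lower genes of this list against 16 higher, decreased by 1.35, 1.08 and 1.08 on the log2 scale. AK4 and the members SLC2A1, PGK1 and LDHA were called higher. VEGFA and BHLHE40 had means of 3095 and 1554 normalized counts with palbociclib, against 2607 and 1240 with DMSO. CA9 and EGLN3 were low, with means of 31.5 and 22.4 normalized counts with DMSO and 12.2 and 9.93 with palbociclib. The PGK1 and LDHA calls were lost with the same total in every library and under quantile normalization. MYC was 0.60 higher with palbociclib than with ruxolitinib (adjusted p 1.86e-05).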

How the data were processed

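Poly(A) RNA of 12 IMR90 libraries in 4 groups of 3 was sequenced. The authors deposited these as a signal: normalized counts per Entrez gene, up to gene number 140467. Genes beyond that were not analysed here. Per the submitters' processing notes, the tools were Trimmomatic 0.38.1, HISAT2 2.2.1, featureCounts 2.0.3, FastQC 0.74, MultiQC and DESeq2 2.11.40.8, on hg38 (GRCh38); annotation and counting settings are not given in the sources used here. Of 160380 values above 0, 160380 (100%) were whole multiples of a step per library, at a tolerance of 0.01, which gave back reads. In A116 that step was close to 1, so its column alone says little. No replicate pair agreed within counting noise (chi-square per degree of freedom 1.98 to 25.1), and no columns were left unmapped.

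The test was limma 3.58.1 (R 4.3.3) fitted to log2(normalized count + 1) as 4 group means over all 12 libraries, with a variance trend and Benjamini-Hochberg adjustment over genes with a mean of at least 10. All adjusted p-values for genes are from this fit unless another tool is named, and fold changes are on the log2(value + 1) scale, which understates low genes. Alternatives were pseudocounts of 0.1 and 5, no filter and a mean of 50, 3 other scalings, no trend, a fit of the 2 groups compared, each library left out, an adjusted p under 0.01, and edgeR 4.0.16 (TMM) and DESeq2 1.42.0 on recovered reads. Leaving out A120 and A126 together was added after seeing the data. The limma step was tested on simulated data. A marker gene of the lists is not reported here. Values in every library are given for members called with an absolute log2 fold change of at least 0.5, at most the 8 largest per direction and comparison, and the 4 largest called genes of each other list are named. PFKFB4, PCK2 and FOXO1 were given by library after their values were seen. Members, lists and tests were chosen with earlier results of these data known. Shared 50-base words were counted over GENCODE 44 transcripts, and motifs over RefSeq promoters of GRCh38.p14 with scripts in Python 3.11.15.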

Additional observations from a re-analysis of the deposited data

How the results depend on the processing

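No paired analysis was possible because the columns carry library numbers and no replicate number. Scaling decided most counts of members. For the stricter threshold, no trend, the fit of 2 groups and left-out libraries, shares of all genes were not computed. Those counts cannot be set against a background. In DMSO against proliferating cells the same total gave 18 higher and 10 lower, the same upper quartile 11 lower, and quantile normalization 15 higher and 11 lower. In palbociclib against DMSO cells the same total gave 2 higher and 9 lower, the same upper quartile 14 higher, quantile normalization 8 higher, and an adjusted p under 0.01 left 13 higher and 3 lower. In palbociclib against ruxolitinib cells the same total gave 5 higher, quantile normalization 5 higher and 8 lower, and an adjusted p under 0.01 left 3 lower. In ruxolitinib against DMSO cells a fit of only the 2 groups compared gave 2 higher, and leaving out A120 and A126 gave 1 higher. The same upper quartile gave 1 lower (2.86%, with 3.12% of all genes), and both limma without a trend and an adjusted p under 0.01 gave 0 lower. With each library left out in turn, members ran from 14 to 23 higher and 3 to 5 lower in palbociclib against DMSO cells and from 0 to 3 lower in ruxolitinib against DMSO cells, where leaving out A118, A122 or A124 gave 0. Ruxolitinib ratios that changed sign on leaving out 1 library ran from -0.0076 to 0.055 for ALDOC to ALDOA, from -0.107 to 0.056 for PFKFB2 to PFKFB3 and from -0.051 to 0.016 for SLC16A3 to SLC16A1, on the log2 scale. Over all alternatives, 222 counts stayed within 1.5 times the reported count and 28 did not, and 259 ratios kept direction and 5 reversed. Of the fold changes of named members, 535 kept direction and call and 12 lost the call. Those members were named because they were called with an absolute log2 fold change of at least 0.5, so their tally is in part fixed by that choice. It also includes PDK4, whose differences are in part fixed by the filter, and is not offered as support. The cause of these changes was not tested. PDK4, PDK3, PFKFB2, FOXO1, CA9 and EGLN3 are limited by low reads, and PDK4 could not be run with a mean of at least 50.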
